A study of Saccharomyces cerevisiae with 6 samples.

Results

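The genes described are 10 ADE genes of purine synthesis in the budding yeast Saccharomyces cerevisiae: ADE1, ADE2, ADE3, ADE4, ADE6, ADE8, ADE12, ADE13, ADE16 and ADE17. They were picked by gene name out of the 6445 genes listed in each count table, and all 10 passed the filter on low counts. RNA was sequenced from cell pellets of a β-carotene producer, labelled with the genotype CrtI/E/YB, and of its parent CEN.PK2-1C, labelled WT, with 3 libraries for each strain. CrtI, CrtE and CrtYB are carotenoid enzymes (phytoene desaturase, geranylgeranyl diphosphate synthase and the fused phytoene synthase and lycopene cyclase), and CEN.PK2-1C is a haploid laboratory strain with several auxotrophies. Transcripts of the introduced enzymes were not analysed here. Both strains grew in YPD, a rich medium of yeast extract, peptone and glucose, for 18 h at 30 °C and 250 rpm. Whether the 3 libraries of a strain stem from different cultures is not stated in the labels; p-values therefore cover the variation among these libraries alone, and it may be technical.

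Purine nucleotides are built stepwise on phosphoribosyl pyrophosphate (PRPP) up to inosine monophosphate (IMP), which is then turned into AMP or GMP. In yeast the pathway is controlled by the transcription factors Bas1 and Pho2, which act on ADE genes when the cell is short of adenine and late intermediates of the pathway accumulate. Bas1 also acts on genes of histidine synthesis, which shares an intermediate with the purine pathway, and on genes that supply one-carbon units. The core of its binding sequence, TGACTC, also lies in the site TGACTCA of Gcn4, the activator of amino acid synthesis.

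The stretches before the ADE genes are shown first because the members differed in this core motif, and the pair with the same enzymatic function, ADE16 and ADE17, was split by it. Each line runs from 250 bases before the first base of the start codon to 50 bases from it, 5′ to 3′ on the strand of the gene, and capitals mark TGACTC or its reverse complement GAGTCA. The sequences come from the RefSeq assembly R64, at chrXIII:509231-509530 (minus strand) for ADE17, chrXII:201266-201565 (minus) for ADE16, chrI:169125-169424 (plus) for ADE1, chrXV:566142-566441 (minus) for ADE2 and chrIV:1288810-1289109 (minus) for ADE8.
ADE17: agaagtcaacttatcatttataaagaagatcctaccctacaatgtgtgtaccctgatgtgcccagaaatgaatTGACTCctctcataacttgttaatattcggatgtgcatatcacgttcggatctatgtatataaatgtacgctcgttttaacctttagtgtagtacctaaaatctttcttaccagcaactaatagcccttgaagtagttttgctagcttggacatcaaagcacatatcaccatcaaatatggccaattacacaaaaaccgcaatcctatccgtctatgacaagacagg
ADE16: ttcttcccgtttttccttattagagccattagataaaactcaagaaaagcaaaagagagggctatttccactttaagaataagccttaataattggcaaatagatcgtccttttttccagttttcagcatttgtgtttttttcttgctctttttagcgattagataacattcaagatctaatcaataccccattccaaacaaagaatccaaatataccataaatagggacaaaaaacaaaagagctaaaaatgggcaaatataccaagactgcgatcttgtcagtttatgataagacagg
ADE1: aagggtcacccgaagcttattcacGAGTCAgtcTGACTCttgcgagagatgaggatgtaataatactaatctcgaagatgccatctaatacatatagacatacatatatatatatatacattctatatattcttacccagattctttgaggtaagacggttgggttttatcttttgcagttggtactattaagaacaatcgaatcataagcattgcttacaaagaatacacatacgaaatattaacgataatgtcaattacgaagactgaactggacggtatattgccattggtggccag
ADE2: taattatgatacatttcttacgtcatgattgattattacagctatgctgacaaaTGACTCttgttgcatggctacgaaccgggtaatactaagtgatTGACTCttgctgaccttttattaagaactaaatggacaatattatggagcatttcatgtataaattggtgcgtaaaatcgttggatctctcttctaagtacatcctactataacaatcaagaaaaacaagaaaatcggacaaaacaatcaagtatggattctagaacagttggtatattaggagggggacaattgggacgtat
ADE8: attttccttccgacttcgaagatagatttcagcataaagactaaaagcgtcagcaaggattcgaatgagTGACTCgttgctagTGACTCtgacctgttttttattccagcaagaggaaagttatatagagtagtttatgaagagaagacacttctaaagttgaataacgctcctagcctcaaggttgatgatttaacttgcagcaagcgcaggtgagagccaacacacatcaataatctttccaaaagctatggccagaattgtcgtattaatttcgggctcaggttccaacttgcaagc

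In this 300-base window 7 of the 10 members held the motif on either strand, against 479 of 6001 windows of protein-coding genes (7.98%). ADE1, ADE2 and ADE8 held 2 matches each, and ADE3, ADE12, ADE13 and ADE17 held 1. In the 500 bases before the start codon 9 of 10 members had a match, ADE4 at 357 bp and ADE6 at 276 bp among them, and ADE16 was the member with none. Over 6000 such windows the share was 12.7%. The wider window was chosen after the first was seen. A match is a run of letters and was not tested for binding.

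**Figure D1:**
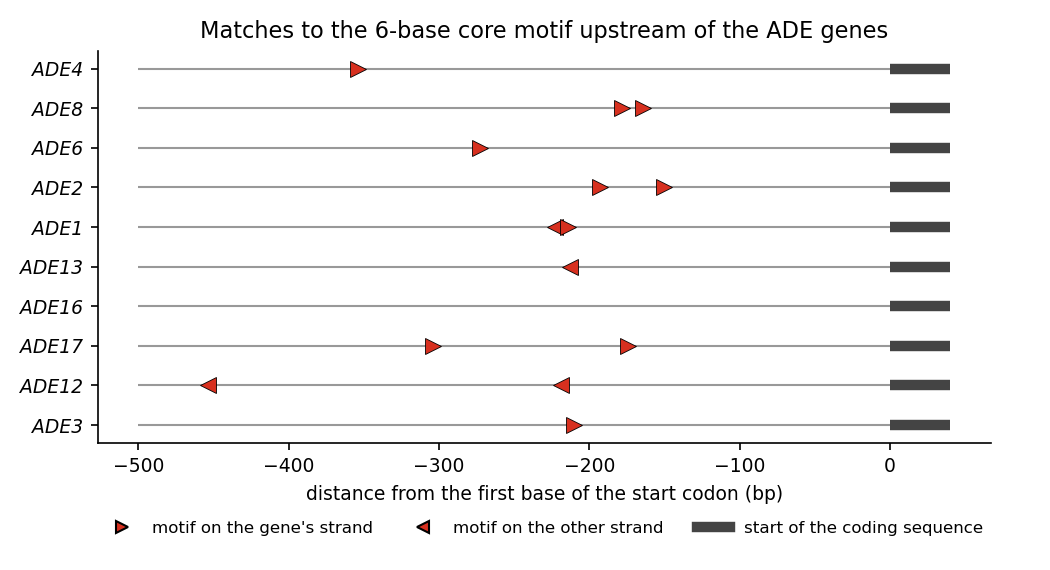
Positions of TGACTC on either strand in the 500 bp before the start codon of the 10 ADE genes, in bp from its first base; arrowheads show the strand relative to the gene and dark bars the start of the coding sequence. The 9 genes other than ADE16 have 1 or 2 matches each.

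Libraries totalled 48383161 to 58296520 estimated counts, and single members had between 6482 counts (ADE8, parental replicate 2) and 110266 counts (ADE17, producer replicate 2). Together the 10 genes took 0.910%, 0.926% and 0.636% of the counts in producer replicates 1, 2 and 3, and 0.850%, 0.5002% and 0.847% in parental replicates 1, 2 and 3. The strains overlapped in this share, and producer replicate 3 and parental replicate 2 lay below the other 4 libraries. The mean share was 0.824% ± 0.163 in the producer and 0.732% ± 0.201 in the parent (SD, n = 3), and the exact two-sided permutation test gave p = 0.50, where the smallest p for 3 against 3 libraries is 0.10.

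The comparison asks whether transcripts of purine synthesis differ between the engineered strain and its parent. None of the 10 ADE genes passed the test. Levels are those of bulk cultures, in which a difference in all cells and a difference in some of them cannot be told apart. With edgeR's quasi-likelihood test, 0 of 10 members had an adjusted p under 0.05, against 1.14% of the 6125 genes tested (upward in 0.8%, downward in 0.343%), and 0 of 10 had an unadjusted p under 0.05, against 27.3%. DESeq2 called 0 of 10 members, against 12.8% of 6260 genes, and limma-voom 0 of 10, against 1.04% of 6125. No member had 3 libraries of one strain all above those of the other, while 16.6% of all tested genes had every producer library above every parental one and 17.2% had the reverse. All 10 log2 fold changes (producer against parent) were above 0, against 48.5% of all genes, with a median of 0.18 against -0.01 over all tested genes. That sign rested on 1 library: without parental replicate 2 the members' median was -0.04 and 4 of 10 were above 0.

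**Figure D2:**
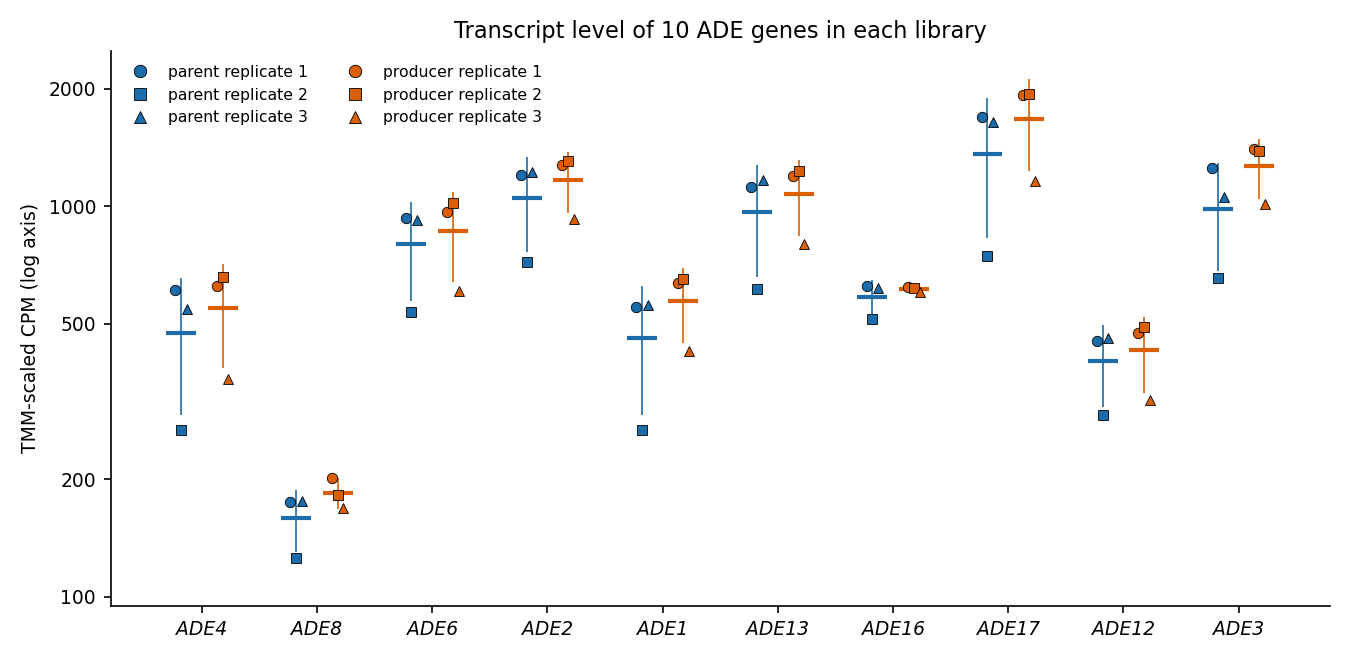
TMM-scaled CPM (log axis) of the 10 ADE genes in the 3 parental and 3 producer libraries; horizontal bars are means and vertical lines ± 1 SD (n = 3). Parental replicate 2 and producer replicate 3 are the lowest point of their strain for each gene, and the strains overlap in all 10.

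The pathway opens with ADE4, the amidotransferase that commits PRPP to purines (YMR300C, chromosome XIII, 865559 to 867091, minus strand, 1 coding exon). In CPM, counts relative to the library total after TMM scaling and the unit of all levels below, it stood at 624, 658 and 360 in producer replicates 1, 2 and 3 and at 611, 268 and 544 in parental replicates 1, 2 and 3. The groups overlapped, and the low library of each strain stood at 56.2% (producer) and 46.3% (parent) of the mean of the other 2. The log2 fold change was 0.21 ± 0.32 (SE), with an edgeR adjusted p of 0.698. ADE8, the formyltransferase that adds the first one-carbon unit (YDR408C, chromosome IV, 1288215 to 1288859, minus strand), was at 202, 183 and 169 CPM in the producer and 175, 126 and 176 CPM in the parent. Its spread was smaller than that of ADE4, the low libraries standing at 87.6% and 71.8% of the others, and its log2 fold change was 0.21 ± 0.13 (SE; edgeR adjusted p = 0.305). ADE6, the amidotransferase of the following step (YGR061C, chromosome VII, 611889 to 615965, minus strand), had 967, 1021 and 606 CPM in the producer and 934, 537 and 925 CPM in the parent. Its log2 fold change was 0.11 ± 0.25 (SE), with an edgeR adjusted p of 0.792.

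The next steps carboxylate the imidazole ring and add a nitrogen taken from aspartate. ADE2, the carboxylase whose loss turns colonies red (YOR128C, chromosome XV, 564476 to 566191, minus strand), was at 1275, 1303 and 929 CPM in the producer and at 1206, 721 and 1224 CPM in the parent. The 2 high libraries of the parent lay between the low and the high producers, and the log2 fold change was 0.15 ± 0.21 (SE; edgeR adjusted p = 0.653). ADE1, the SAICAR synthetase (YAR015W, chromosome I, 169375 to 170295, plus strand), had 638, 649 and 427 CPM in the producer and 553, 267 and 558 CPM in the parent. Its parental replicate 2 stood at 48.02% of the other 2, and its log2 fold change was 0.31 ± 0.28 (SE; edgeR adjusted p = 0.483). ADE13, adenylosuccinate lyase, which acts both here and in the branch to AMP (YLR359W, chromosome XII, 844282 to 845730, plus strand), was at 1194, 1234 and 802 CPM in the producer and at 1122, 613 and 1169 CPM in the parent. It had a log2 fold change of 0.15 ± 0.25 (SE; edgeR adjusted p = 0.717).

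The last 2 steps to IMP are carried by a pair of isozymes that behaved differently across libraries. ADE17 (YMR120C, chromosome XIII, 507502 to 509280, minus strand) was at 1926, 1934 and 1161 CPM in the producer and at 1689, 746 and 1646 CPM in the parent. It spanned 2.59-fold over the 6 libraries, the widest of the 10, and had a log2 fold change of 0.30 ± 0.32 (SE; edgeR adjusted p = 0.552). ADE16 (YLR028C, chromosome XII, 199540 to 201315, minus strand) was the steadiest, at 620, 618 and 604 CPM in the producer and at 626, 514 and 618 CPM in the parent, a span of 1.22-fold. Its log2 fold change was 0.07 ± 0.10 (SE; edgeR adjusted p = 0.683), and its 95% interval of 0.90 to 1.22-fold excludes a change of 1.5-fold, whereas that of ADE17, 0.74 to 2.04-fold, does not.

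Per kilobase of coding sequence, ADE17 transcripts exceeded those of ADE16 by 3.10, 3.12 and 1.92-fold in producer replicates 1, 2 and 3 and by 2.69, 1.45 and 2.66-fold in parental replicates 1, 2 and 3. The ratio was lowest in producer replicate 3 and parental replicate 2, and the strains overlapped. Its mean was 2.71 ± 0.690 in the producer and 2.27 ± 0.708 in the parent (SD, n = 3; exact two-sided permutation p = 0.50). The coding sequences of the pair are identical at 74.8% of 1776 aligned bases, and their longest identical run is 19 bases; whether the counting split reads between them was not tested.

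From IMP, ADE12 (adenylosuccinate synthetase, YNL220W, chromosome XIV, 234413 to 235714, plus strand) leads towards AMP. It was at 474, 490 and 319 CPM in the producer and at 453, 292 and 460 CPM in the parent, with a log2 fold change of 0.09 ± 0.21 (SE; edgeR adjusted p = 0.801). ADE3, the cytoplasmic enzyme that interconverts the one-carbon forms of tetrahydrofolate used by the pathway (YGR204W, chromosome VII, 905934 to 908774, plus strand), was at 1404, 1382 and 1012 CPM in the producer and at 1251, 654 and 1055 CPM in the parent. With a log2 fold change of 0.36 ± 0.23 (SE; edgeR adjusted p = 0.327) it had the largest log2 fold change of the 10. No member overlaps another annotated gene.

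**Figure D3:**
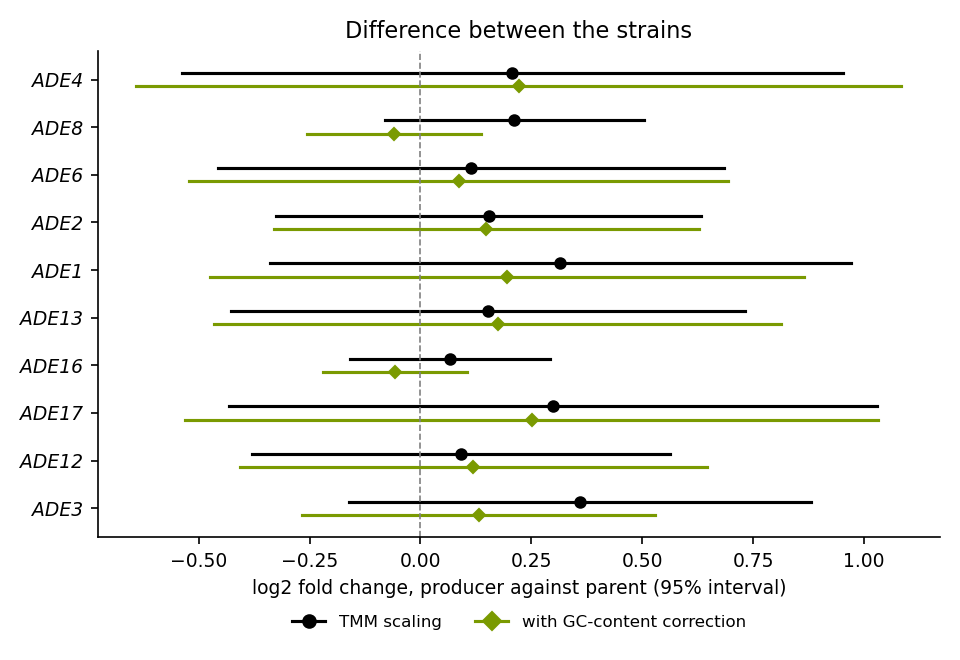
Log2 fold change of the 10 ADE genes, producer against parent, with 95% intervals, as scaled by TMM (black circles) and with a correction for the GC content of genes (green diamonds). All intervals span 0, and ADE8 and ADE16 lie below 0 after the correction, at -0.06 each.

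In levels per kilobase of coding sequence, the order by the median over 6 libraries was ADE17 (937 CPM per kb), ADE13 (790), ADE2 (708), ADE1 (603), ADE3 (406), ADE4 (377), ADE12 (351), ADE16 (348), ADE8 (273) and ADE6 (228 CPM per kb). The ranges over the 6 libraries overlapped for every pair of neighbours in that order. Within a library the order was firmer: ADE13 exceeded ADE2, ADE2 exceeded ADE1, ADE1 exceeded ADE3, ADE3 exceeded ADE4, ADE16 exceeded ADE8 and ADE8 exceeded ADE6 in 6 of 6 libraries. ADE17 exceeded ADE13 in 5 of 6, ADE4 exceeded ADE12 in 4 of 6 and ADE12 exceeded ADE16 in 3 of 6. The first 5 places were the same in the means of both strains.

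The larger differences thus lay between libraries of the same strain. Producer replicate 3 was the lowest producer and parental replicate 2 the lowest parental library in 10 of 10 members, against 26.4% of all tested genes. Relative to its mean over the 6 libraries, the average member stood at 0.28, 0.29 and -0.24 (log2) in producer replicates 1, 2 and 3 and at 0.17, -0.64 and 0.14 in parental replicates 1, 2 and 3. The median gap below the other 2 libraries of the strain was 0.59 (log2) for producer replicate 3 and 0.80 for parental replicate 2, against medians of 0.01 and -0.01 over all tested genes. Both gaps exceeded 0.5 in 6 of 10 members (ADE1, ADE4, ADE6, ADE12, ADE13 and ADE17), against 0.735% of all tested genes. These libraries were singled out after the values were seen, so the counts are a description. Library totals were 56779887, 58296520 and 56994477 counts in producer replicates 1, 2 and 3 and 57475452, 48671430 and 48383161 in parental replicates 1, 2 and 3. In a fit that includes the log2 library total the members' median log2 fold change between the strains was -0.03 and 7 of 10 were below 0. The part of depth in the gaps was not tested.

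The spread between libraries of a strain, as a pooled SD of log2 CPM, was 0.57 for ADE4, 0.56 for ADE17, 0.49 for ADE1, 0.44 for ADE13 and ADE6, 0.39 for ADE3 and 0.36 for ADE2 and ADE12. Each of these 8 values was above the 95th percentile of the 5540 tested genes with a mean of at least 10 CPM, whose median was 0.10. ADE8, at 0.22, lay at percentile 91.7 and ADE16, at 0.11, at percentile 55.2.

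Transcript level also followed gene GC content differently in each library, and members differ in it. ADE8 has 47.9% GC, above 95.6% of the genes matched to RefSeq, ADE3 has 46.9%, ADE1 43.3% and ADE16 43.1%, and the other 6 lie between 39.3% and 41.4%. At the GC content of ADE8 the fitted GC trend was -0.30 (log2) in parental replicate 2, against 0.03 and -0.15 in parental replicates 1 and 3. At that of ADE16 it was -0.15, against 0.02 and -0.06. In producer replicates 1, 2 and 3 it was 0.20, 0.12 and 0.10 for ADE8 and 0.08, 0.06 and 0.05 for ADE16. The gaps of parental replicate 2 in ADE8 and ADE16 were 0.48 and 0.27 with this trend and 0.01 and 0.01 once it was removed. Those of producer replicate 3 were 0.19 and 0.04 with the trend and 0.07 and -0.01 without it. Both low libraries kept their place in the other 8 members, against 27.7% of all genes, with gaps of 0.35 to 0.82 for producer replicate 3 and 0.37 to 1.08 for parental replicate 2, and 6 of 10 members again had both gaps over 0.5, against 0.634% of all genes. With the GC-content correction in the fit, the members' median log2 fold change between the strains was 0.14. In that fit 8 of 10 were above 0, where the median over all genes was 0.01. In edgeR 0 of 10 passed, against 73 of 5989 genes.

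**Figure D4:**
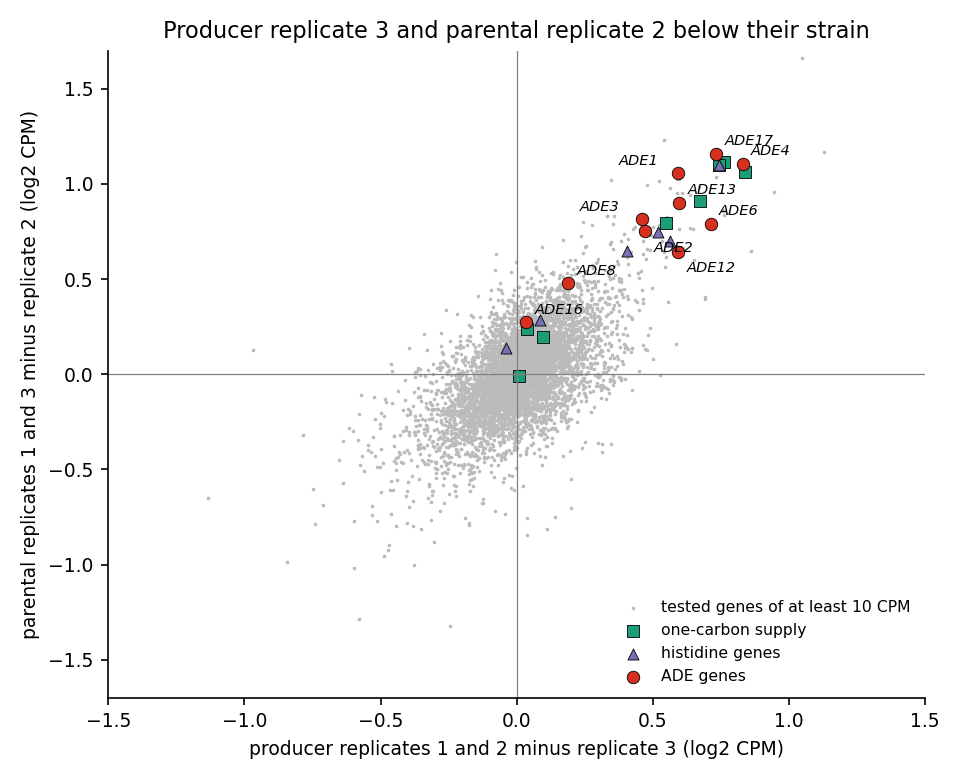
Gap in log2 CPM between producer replicate 3 and the other 2 producers (horizontal) and between parental replicate 2 and the other 2 parental libraries (vertical), for tested genes of at least 10 CPM (grey), ADE genes (red), genes of one-carbon supply (green) and histidine genes (purple). Of the ADE genes, ADE16 and ADE8 lie nearest to 0 and ADE17 and ADE4 far to the upper right; 1 gene lies outside the axes.

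Related genes, ADE5,7 and those of PRPP supply, the GMP branch, salvage, uptake, regulation, one-carbon supply and histidine synthesis, gave few calls between the strains. Of 40 such genes, 0 passed in edgeR (1.14% of all genes) and 0 in limma-voom (1.04%), and DESeq2, which called 12.8% of all genes, called 1 (ADO1, adjusted p = 0.0388). By unadjusted p under 0.05 edgeR gave 4 of 40, against 27.3% of all genes, and the median log2 fold change was 0.11. ADE5,7, the bifunctional enzyme of early steps, was at 1373, 1438 and 921 CPM in the producer and at 1277, 630 and 1163 CPM in the parent, a log2 fold change of 0.28 ± 0.27 (SE; edgeR adjusted p = 0.5001). In the branch to GMP, IMD2, an IMP dehydrogenase, was at 0.17 ± 0.09, IMD4 at 0.04 ± 0.07 and GUA1, GMP synthetase, at 0.03 ± 0.09 on the log2 scale. PRS5, PRS3 and PRS4, subunits of PRPP synthetase, were at 0.14 ± 0.09, -0.07 ± 0.08 and 0.06 ± 0.07. Among the salvage genes, ADO1, adenosine kinase, was at 0.42 ± 0.14 (edgeR adjusted p = 0.109), MEU1, methylthioadenosine phosphorylase, at 0.19 ± 0.07, APT2 at 0.20 ± 0.11 and APT1, adenine phosphoribosyltransferase, at 0.10 ± 0.09. FCY22, FCY21 and FCY2, listed here under uptake, were at 0.28 ± 0.17, 0.16 ± 0.13 and 0.11 ± 0.24. In 5 of the 40 genes every producer library lay above every parental one (ADO1, MEU1, SHM1, HIS2 and PRS4), against the 16.6% of all genes given above.

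Transcripts of the regulators Bas1 and Pho2 were not lowest in the low libraries. BAS1 was at 74.1, 82.6 and 82.5 CPM in producer replicates 1, 2 and 3 and at 72.1, 81.2 and 75.0 CPM in the parent, and PHO2 at 190, 192 and 217 CPM and 180, 193 and 186 CPM. In both genes producer replicate 3 and parental replicate 2 lay above the mean of the other 2 libraries of their strain. Their log2 fold changes were 0.07 ± 0.08 and 0.10 ± 0.07 (SE). GCN4 was at 693, 738 and 619 CPM in the producer and at 713, 592 and 688 CPM in the parent, with gaps of 0.21 and 0.24 (log2) in the low libraries and a log2 fold change of 0.04 ± 0.11 (SE).

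One-carbon and histidine genes shared the pattern in part. In the one-carbon list of 8 genes the median gaps were 0.61 (log2) for producer replicate 3 and 0.85 for parental replicate 2. In 7 of 8 both libraries were lowest, against 26.4% of all tested genes. SHM2, the cytosolic serine hydroxymethyltransferase, was at 1841, 1861 and 1091 CPM in the producer and at 1683, 740 and 1524 CPM in the parent, while MIS1, the mitochondrial counterpart of ADE3, was at 138, 158 and 147 CPM and 142, 141 and 137 CPM. In the histidine list 5 of 6 had both libraries lowest, with median gaps of 0.46 and 0.67, and HIS4 was at 1610, 1798 and 1016 CPM in the producer and at 1509, 696 and 1475 CPM in the parent. The genes with both libraries lowest include SHM1 (gaps of 0.04 and 0.24), LPD1 (0.10 and 0.20) and HIS2 (0.08 and 0.29). The others so counted in these lists had gaps of at least 0.4. FCY2, the purine and cytosine permease, had gaps of 0.65 and 0.76. TGACTC lay in the 300-base window of 6 of 8 one-carbon genes, 5 of 6 histidine genes, 2 of 10 salvage genes (APT1 and XPT1), 0 of 5 PRPP genes, 0 of 4 GMP branch genes, 0 of 3 regulators and 0 of 3 uptake genes, against 7.98% of all windows. The motif in that window and the gaps did not go together in every list or member: the uptake genes had median gaps of 0.46 and 0.54. ADE4 and ADE6, without it, had gaps of 0.83 and 1.11 and of 0.71 and 0.79. ADE8, with 2 matches, had 0.19 and 0.48. The other members with it had gaps of at least 0.46, and ADE16, without it, had 0.04 and 0.27. HIS6, with the motif, had gaps of -0.04 and 0.14. APT1, with the motif, had gaps of 0.16 and 0.11. In the 500 bases before the start codon FCY2, HPT1 and GUA1 also had a match, and FCY21 and FCY22 did not. Between the strains 0 genes of these lists passed in edgeR; GCV3, SHM1 and GCV1 were at 0.39 ± 0.23, 0.22 ± 0.09 and 0.39 ± 0.31 (SE), and HIS2, HIS5 and HIS1 at 0.26 ± 0.09, 0.26 ± 0.18 and 0.19 ± 0.22.

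The genes most like the members' mean over the 6 libraries, among 5530 others of at least 10 CPM, were HIS1, SHM2, HIS4, SER3 (phosphoglycerate dehydrogenase of serine synthesis) and ADE5,7. The measure was the Pearson correlation of centred log2 CPM without GC-content correction, at 0.995 to 0.998 for these 5. With that correction the first 5 among 5522 others were TAL1, MTD1, SHM2, HIS4 and YBT1, at 0.993 to 0.998. Against the mean of the other members, ADE8 went from 0.92 to -0.04 with the correction and ADE16 from 0.91 to -0.10. The other members stayed at 0.89 or above. The correlation rests on 6 points that share depth and GC trends and is given as a description.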

How the data were processed

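Each deposited table holds the authors' estimated counts for 1 library, already whole, so no value was altered by rounding. The column names show StringTie output made after duplicate removal, per the file headers; this step may lower abundant transcripts. The submitters' processing notes list FastQC, HISAT2, SAMtools, Picard and DESeq2 and the build sacCer3. Versions, parameters and strand use in counting: not given in the sources used here. Tables were joined by name, and coordinates, GC content and upstream sequence come from RefSeq R64, the assembly behind sacCer3, in which 6130 of 6445 names and all 10 members were found.

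The comparison used edgeR 4.0.16 in R 4.3.3 (filterByExpr, TMM, robust quasi-likelihood F test, two-sided, group only), with Benjamini-Hochberg adjustment over the 6125 genes tested and a threshold of 0.05. The SE is the size of the log2 fold change divided by the square root of F. Gaps and SDs use log2 CPM with a prior count of 2, without GC-content correction. The GC-content correction is a loess trend (span 0.5, genes of at least 5 CPM) removed per library through the fit's offsets, for the 97.8% of tested genes with a known GC content. Alternatives were other scalings and filters, covariates, DESeq2 1.42.0, limma-voom (limma 3.58.1) and each library left out. Named genes are all members, and of each related list the called genes and up to 3 others with the smallest adjusted p, with IMD2, BAS1, PHO2 and APT1; other genes given with values were singled out after those were seen. The members and lists were chosen with earlier results of these data known.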

Additional observations from a re-analysis of the deposited data

How the results depend on the processing

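No ADE gene passed under any of the 17 alternatives, the smallest adjusted p being 0.113 (ADE3). The count of genes called, 70 in edgeR, became 10 with the log2 library total as covariate, 26 with the GC-content correction and the replicate block, and 804 in DESeq2, and ranged from 15 to 1077 when 1 library was left out (1077 without parental replicate 1, 22, 15 and 21 without producer replicates 1, 2 and 3, and 16 without parental replicate 3). The cause was not tested. The members' median log2 fold change ranged from -0.04 to 0.32 over the libraries left out, from 0.14 to 0.21 under the other scalings, filters and tools, and was -0.03 with the library total as covariate.

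Signs turned in 19 of 170 combinations of member and setting, for 8 of the 10 members. With the library total as covariate ADE2 was at -0.043, ADE4 at -0.161, ADE6 at -0.121, ADE12 at -0.090, ADE13 at -0.060, ADE16 at -0.021 and ADE17 at -0.0076. With the GC-content correction ADE8 was at -0.059 and ADE16 at -0.058, and with the block added at -0.054 and -0.056. Leaving out 1 library gave -0.057 to 0.295 for ADE2, -0.078 to 0.435 for ADE4, -0.106 to 0.316 for ADE6, -0.095 to 0.263 for ADE12, -0.091 to 0.326 for ADE13 and -0.019 to 0.117 for ADE16. These lowest values came without parental replicate 2, and ADE6 and ADE12 were also below 0 without producer replicate 2, at -0.022 and -0.019. ADE1 and ADE3 stayed above 0 in all 17.

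The replicate numbers were not taken as pairs: deviations from the strain means correlated at 0.40, -0.38 and -0.61 across 5681 genes for numbers 1, 2 and 3. Not every library thus correlated best with its own number. Producer replicate 3 and parental replicate 2 correlated at 0.64 across these genes, the highest of any pair between the strains. With the replicate block edgeR called 104 genes and 0 members, and the members' median was 0.20. Single counts of these genes were 6482 or more, and the part of depth in the gaps was not tested. With 3 libraries per strain and this spread the 95% interval of ADE17 includes a 2-fold rise.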

Other observations

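Some genes outside purine metabolism were also lower in producer replicate 3 and parental replicate 2. Ranked by the smaller of the gaps of these libraries, the first 30 of 5540 genes of at least 10 CPM held 6 ADE members, 7 genes of the related lists and 17 others. ARG3, ornithine carbamoyltransferase, had gaps of 1.13 and 1.17 (log2) and ARG1, argininosuccinate synthetase, 1.05 and 1.66. ARG4 and ARG5,6 of the same pathway ranked 12 and 21, LYS20, homocitrate synthase, ranked 16, and MET6, methionine synthase, ranked 25. SSU1, a sulfite pump, ranked 3, MAE1, the mitochondrial malic enzyme, 7 and PHO84, the high-affinity phosphate transporter, 23. Among the members ADE4 ranked 5, ADE17 13, ADE6 14, ADE13 24, ADE12 27 and ADE1 28, whereas ADE8 ranked 383 and ADE16 1688. The choice of these names followed their values and no test was made, so they do not stand for their pathways.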
